A study of Mus musculus with 15 samples.

Results

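The 36 genes described here belong to the integrated stress response and its transcription factor ATF4. They come from a list of ATF4-pathway genes that was chosen with earlier results of these data known. They are 36 of 34554 genes and added sequences in the count table. By role they fall into 13 regulators and stress factors, 10 amino acid enzymes, 3 amino acid carriers, 6 cytosolic tRNA synthetases and 4 genes for secreted proteins or a receptor. Of these, 35 passed the filter on low counts. The exception was Fgf21, a secreted hormone, with a total of 11 estimated counts over all 15 libraries.

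In the integrated stress response, several kinases that sense unfolded proteins, missing amino acids, viral RNA or mitochondrial faults phosphorylate the translation factor eIF2. Most translation then slows, while the mRNA of ATF4 is translated better, so ATF4 protein can change with little change in its mRNA. ATF4 switches on genes for amino acid synthesis, amino acid import and tRNA charging, and also stress factors such as CHOP (Ddit3), TRIB3 and CHAC1 that can shift a cell towards growth arrest or death. RNA counts do not measure eIF2 phosphorylation or ATF4 protein.

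The libraries were made from RNA of normal mouse pancreas ductal organoids, hollow epithelial cultures in Matrigel. Inducible lines (A217, A220 and A225) carry the alleles needed for doxycycline to switch on CA19-9, a sugar epitope on secreted and surface proteins, while negative lines (A218 and A223) lack 1 of those alleles, and which one is not given in the labels used here. Each of the 5 lines gave 1 library at 0 h (no doxycycline), 4 h and 24 h of doxycycline at 1 µg/ml, so there were 3 inducible and 2 negative libraries per time, and the medium of every culture, which contained N-acetylcysteine as a cysteine source, was renewed 24 h before a common harvest. Both genotypes received doxycycline, so a change shared by them cannot be told apart from an effect of the drug itself. The labels do not say whether lines came from separate animals, so the p-values speak only of spread among these lines.

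Library totals ran between 47915632 and 59411540 estimated counts. The 12 ductal markers summed to between 9760 and 16800 counts scaled to library size (CPM) in every library and were higher at 24 h, with 14200 to 16000 CPM in inducible and 16200 to 16800 CPM in negative lines, than at 0 h, with 10600 to 12900 CPM in inducible and 11400 to 11600 CPM in negative lines. Their part in the changes described here was not tested. Islet markers summed to at most 0.23 CPM with Ins1, Ins2 and Gcg at 0 reads, acinar markers to at most 2.03 CPM with Cpa1 and Ptf1a at 0 reads, and fibroblast, immune and endothelial markers to at most 6.9 CPM. The human transcripts among the added sequences stood at 695 to 918 CPM in inducible lines at 4 h and 731 to 1050 CPM at 24 h, against 0.713 to 1.99 CPM in negative lines at these times. The 24 h library of A225 stood apart, being the highest of 15 for 14.8% and the lowest for 13.1% of the 16446 tested features, while each of the others was highest for 4.03% to 8.13% of them. In bulk RNA, fewer cells of a type and less RNA per cell cannot be told apart.

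ATF4 and its partners bind the C/EBP-ATF response element, and the letters TGATGNAA, where N is any base, were searched on both strands between 250 bases before and 50 bases after the annotated start of each gene. Of the members, 31 had a RefSeq window (GRCm38.p6), and 10 of them, 32.3%, held the letters, against 4.51% of 27025 genes with a window. Eif4ebp1, Cth, Slc7a5, Wars and Nars had no entry. The letters were in the windows of 4 of 12 regulators and stress factors and of 4 of 15 amino acid and tRNA synthetase genes, and also in those of Fgf21 and Vldlr. Stretches around the motif are shown for 4 stress factors and 3 supply genes because these groups are set against each other in the values that follow. Each reads 5′ to 3′ with the motif in capitals.
Atf3, chr1:191183426-191183453, plus strand: gcggacttggTGATGCAAgtgcgagaag
Trib3, chr2:152344029-152344056, plus strand: cccgcccggcTGATGTAAacctgagcta
Chac1, chr2:119351039-119351066, minus strand: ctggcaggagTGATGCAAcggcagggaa
Nupr1, chr7:126625563-126625590, plus strand: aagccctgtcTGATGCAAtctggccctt
Asns, chr6:7693215-7693242, minus strand: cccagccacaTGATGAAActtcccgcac
Pycr1, chr11:120643834-120643861, minus strand: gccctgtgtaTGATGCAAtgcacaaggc
Gars, chr6:55037961-55037988, minus strand: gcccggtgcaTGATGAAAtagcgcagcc
Counted from the gene's RefSeq start, the motif began 110 bases before it in Atf3 and in Nupr1, 193 bases before it in Chac1, 23 in Asns, 103 in Pycr1 and 30 in Gars, and 14 bases after it in Trib3. A match of letters is a description of the window and no measure of binding.

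Before doxycycline the pathway was already transcribed at very different levels. In TPM, transcript levels scaled to a fixed total per library that correct for transcript length, the highest of the members at 0 h was Phgdh, the first enzyme of serine synthesis, at 480 ± 56.3 TPM in inducible lines (SD, n = 3) and 496 ± 57.2 TPM in negative lines (SD, n = 2). Psat1, the next enzyme of that route, followed at 306 ± 20.1 TPM in inducible and 339 ± 32.1 TPM in negative lines. The synthetases Nars, Gars and Sars and the factor Atf4 came next, with Atf4 at 235 ± 5.76 TPM in inducible and 231 ± 16.1 TPM in negative lines. Nars, Gars, Atf4 and Sars, ordered by their mean over the 5 lines at 266, 241, 233 and 219 TPM, had SDs of 19.4, 16.5, 9.29 and 13.4 TPM (n = 5), so neighbours in this order lay about as far apart as their spread. Several stress factors, though not all, lay at the other end of the range. Eif4ebp1, Ddit4 and Sesn2 had means over the 5 lines of 86.9, 43.8 and 33.9 TPM, and the enzyme Pycr1 was low at 5.5 TPM. Ddit3, which encodes CHOP, had 9.87 ± 1.15 TPM in inducible and 11.2 ± 0.656 TPM in negative lines, and Chac1, Trib3 and Atf3 had means over the 5 lines of 3.5, 3.42 and 3.28 TPM with SDs of 0.767, 0.54 and 0.42 TPM. These 3 neighbours at the foot of the order did not differ beyond their spread.

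**Figure D1:**
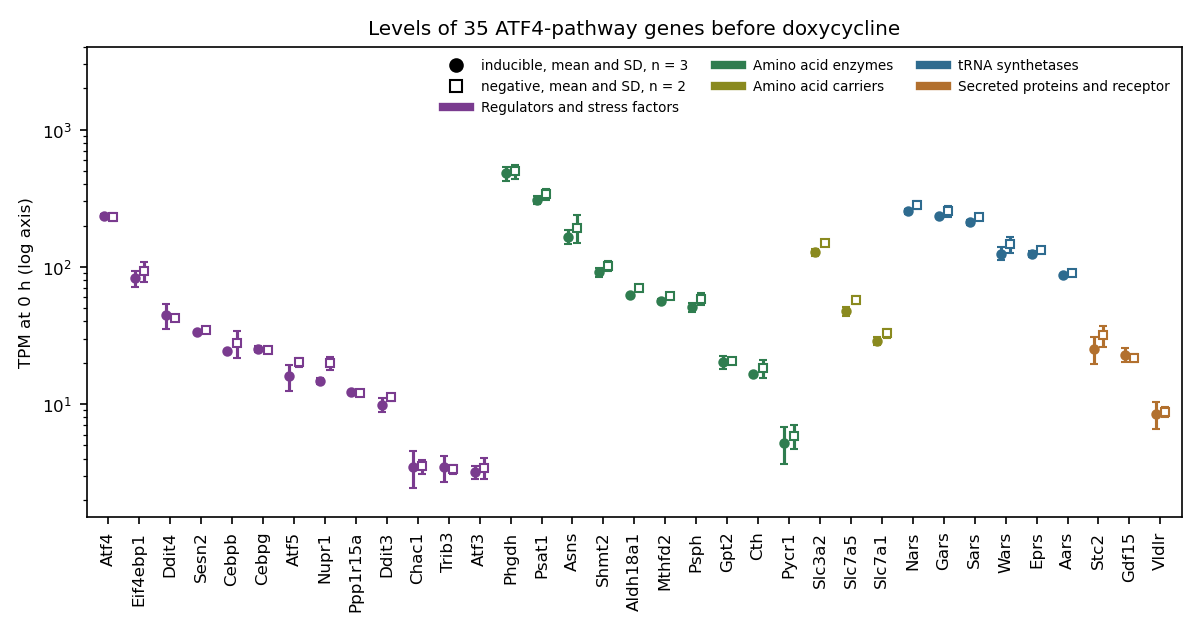
Level of 35 ATF4-pathway genes before doxycycline, in TPM on a log axis, for inducible lines (filled circles, left) and negative lines (open squares, right), with colours for the roles and bars for the SD. Phgdh and Psat1 are the highest members at 487 and 319 TPM over the 5 lines, and Chac1, Trib3 and Atf3 are the lowest at 3.28 to 3.5 TPM.

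At 4 h of doxycycline no member passed the test within either genotype. The test was edgeR's quasi-likelihood test without a term for the line, here called the unpaired fit, with p-values adjusted over all 16446 tested features and calls made below 0.05. Of the 35 measured members, 0 were called in inducible lines, where 0.298% of all features were called, and 0 in negative lines, where 0.122% were. At an unadjusted p below 0.05 there were 3 members in inducible and 2 in negative lines, where 1251 and 1039 of the 16446 features were. DESeq2 called 1 member in inducible and 0 in negative lines, and limma-voom likewise 1 and 0, with no share of all features given for these fits. When each line was used as its own block, edgeR called 2 members in inducible lines, Slc3a2 and Slc7a5, where 3.05% of all features were called, and 1 in negative lines, Wars, where 2.06% were. Over all 5 lines, as the mean of both genotypes' changes, the unpaired fit called 1 member, where 0.912% of features were called, and the fit with the line block called 10, where 8.68% were. The 10 are 28.6% of the 35 members. This share is a description only, since the members were chosen with earlier results of these data known. The 10 were 2 higher stress factors, Chac1 and Ddit4, and 8 lower genes, Slc3a2, Slc7a5, Slc7a1, Wars, Shmt2, Gpt2, Gdf15 and Stc2. The unpaired count of 1 over all 5 lines was 0 without any 1 of the 4 h libraries of A217, A218, A220 or A223 or the 0 h library of A223, and 2 without the 4 h library of A225. Of the measured members with a RefSeq window, 1 of 9 that held the motif (Chac1) and 7 of 21 that did not were called over all 5 lines at 4 h with the line block.

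Most regulators and stress factors had positive changes at 4 h that did not pass the test within a genotype and differed widely between lines. Of the 13, 12 had a positive log2 change in inducible lines and 9 in negative lines, with medians of 0.11 and 0.10 against medians of all features of -0.0012 and 0.0091. In each genotype edgeR called 0 of the 13 unpaired, with 0 at an unadjusted p below 0.05, and DESeq2 and limma-voom called 0. The median by line was -0.064 in A217, 0.034 in A220 and 0.33 in A225 of the inducible lines and 0.11 in A218 and 0.16 in A223 of the negative lines.

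Atf4 encodes the transcription factor that carries the response. At 0, 4 and 24 h, Atf4 was at 263, 250 and 266 CPM in inducible line A217, 260, 261 and 247 CPM in A220 and 244, 356 and 256 CPM in A225. The negative lines gave 257, 278 and 275 CPM in A218 and 233, 311 and 284 CPM in A223. The A225 and A223 libraries at 4 h were the highest of all 15, A217 was slightly lower at 4 h than at 0 h, and the inducible groups overlapped while the negative ones did not. The log2 change over all 5 lines at 4 h was 0.22 (95% interval 0.038 to 0.40), with an edgeR adjusted p of 0.306 in the unpaired fit and 0.0979 with the line block.

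Chac1, a glutathione-degrading enzyme switched on by ATF4, varied most. Chac1 gave 2.88, 2.39 and 2.81 CPM at 0, 4 and 24 h in inducible line A217, 4.84, 6.56 and 4.46 CPM in A220 and 3.05, 10.8 and 3.56 CPM in A225. In negative lines A218 and A223 its levels were 3.83, 4.99 and 4.3 CPM and 3.22, 9.08 and 7.48 CPM at these times. At 4 h it was above its own 0 h level in 4 of 5 lines and below it in A217, and the inducible groups overlapped. Its log2 change at 4 h was 0.88 in inducible and 1.00 in negative lines and 0.94 over all 5 lines (95% interval 0.19 to 1.69). The edgeR adjusted p over all 5 lines was 0.285 unpaired and 0.0456 with the line block, where the log2 change was 0.85.

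Trib3, a pseudokinase that dampens ATF4 and AKT signalling, was highest in the same libraries. The Trib3 level was 3.81, 3.16 and 3.25 CPM at 0, 4 and 24 h in inducible line A217, with 5.24, 5.22 and 3.41 CPM in A220 and 3.78, 10.9 and 4.03 CPM in A225. Negative line A218 had 4.49, 5.64 and 3.84 CPM and A223 had 4.03, 8 and 5.75 CPM. Its 4 h level was high in A225 and A223, and A217 and A220 lay at or below their own 0 h level. At 4 h its log2 change over all 5 lines was 0.63 (95% interval 0.042 to 1.23), with edgeR adjusted p-values of 0.38 unpaired and 0.117 with the line block. It was lower at 24 h than at 4 h in all lines but A217, and its log2 difference between those times was -0.64 with the line block (edgeR adjusted p = 0.0289), against an adjusted p of 0.102 unpaired.

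Ddit3 encodes CHOP, a factor linked to cell death under lasting stress. In inducible line A217, Ddit3 measured 5.16, 4.81 and 4.7 CPM at 0, 4 and 24 h, beside 4.78, 5.14 and 4.09 CPM in A220 and 3.91, 7.01 and 4.25 CPM in A225. Among negative lines, A218 stood at 4.83, 4.93 and 4.59 CPM and A223 at 5.43, 6.09 and 4.72 CPM. The 4 h library of A225 was the highest of all 15, and the 0 h and 4 h groups overlapped in both genotypes. The log2 change at 4 h was 0.29 in inducible lines (95% interval -0.05 to 0.64) and 0.10 in negative lines (95% interval -0.32 to 0.52), with edgeR adjusted p-values of 0.746 and 1. Exons of Ddit3 overlap those of the gene Mars on the other strand, and use of strand in the counting was not stated in these sources. Atf3, a repressor made early in many stresses, ranged between 3.6 and 6.61 CPM in the 15 libraries, with its highest value in A225 at 4 h, and its log2 change at 4 h over all 5 lines was 0.37 (edgeR adjusted p = 0.31). The 4 h library of A225 was the highest of all 15 for 8 of 35 members and for 6.4% of all features.

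**Figure D2:**
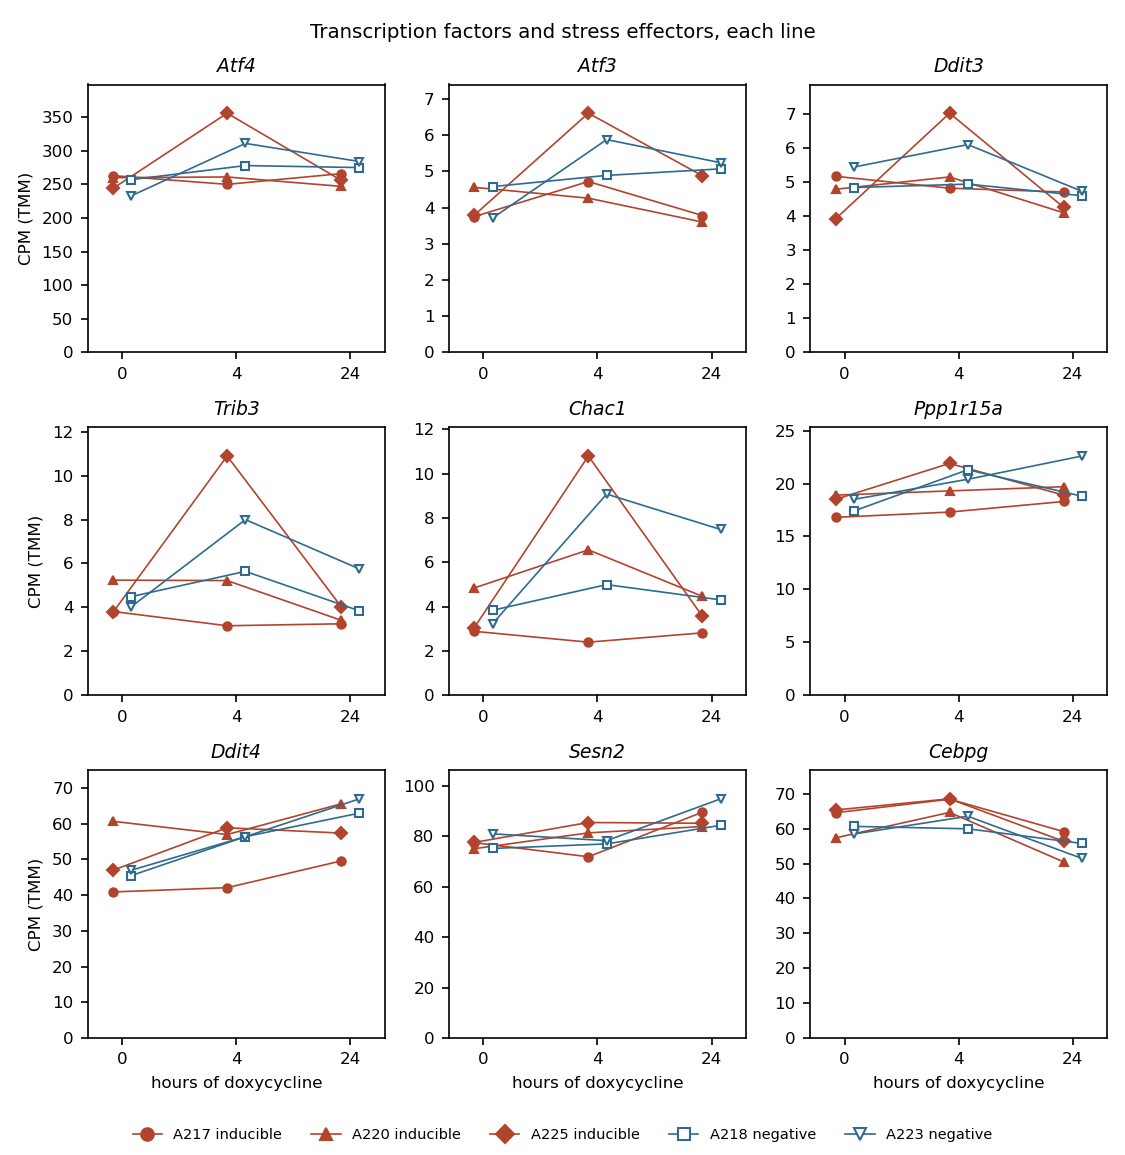
CPM of 9 stress genes at 0, 4 and 24 h of doxycycline, 1 line per organoid line, inducible lines with filled symbols to the left and negative lines with open symbols to the right, all axes from 0. At 4 h, Atf4, Trib3, Chac1, Ddit3 and Atf3 are highest in A225 (356 CPM for Atf4) and next highest in A223, while Chac1 in A217 stays at 2.39 CPM.

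Ddit4 and Sesn2 both restrain the growth kinase complex mTORC1, and both were higher at 24 h. Inducible line A217 held Ddit4 at 40.9, 42.1 and 49.6 CPM across 0, 4 and 24 h, A220 at 60.7, 57 and 65.6 CPM and A225 at 47, 58.9 and 57.4 CPM. Without the full set of alleles, A218 held it at 45.5, 56.4 and 63 CPM and A223 at 47, 56.4 and 67 CPM. In each of the 5 lines Ddit4 was higher at 24 h than at 0 h, but lines differed in level, so the inducible groups overlapped while the negative ones did not. Its change at 24 h was 0.22 in log2 in inducible and 0.49 in negative lines, with unpaired edgeR adjusted p-values of 0.428 and 0.148. With the line block these were 0.0215 and 0.000738, and over all 5 lines the edgeR adjusted p was 0.00011 with the block, against 0.0527 unpaired, and DESeq2 and limma-voom also called Ddit4 there.

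Sesn2 is a leucine sensor. For Sesn2 the levels at 0, 4 and 24 h were 77.5, 71.9 and 89.6 CPM in inducible line A217, 75.1, 81.4 and 83.9 CPM in A220 and 77.6, 85.5 and 85.2 CPM in A225. They were 75.2, 77 and 84.4 CPM in negative line A218 and 81, 78.3 and 94.9 CPM in negative line A223. All 24 h libraries lay above all 0 h libraries of the same genotype. Its log2 change over all 5 lines at 24 h was 0.18 (95% interval 0.075 to 0.29, edgeR adjusted p = 0.0248), with 0.17 in inducible and 0.20 in negative lines. The call ended when any 1 of 5 libraries was left out (0 h of A217, A218, A220 or A225, or 24 h of A223), with adjusted p-values up to 0.138.

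Cebpg and Cebpb encode partners with which ATF4 can pair. At 0, 4 and 24 h, Cebpg was at 64.6, 68.5 and 59.2 CPM in inducible line A217, 57.4, 64.7 and 50.5 CPM in A220 and 65.4, 68.6 and 56.4 CPM in A225. The negative lines gave 60.7, 60 and 55.8 CPM in A218 and 58.5, 63.6 and 51.5 CPM in A223. Cebpg was lower at 24 h than at both 0 h and 4 h in each of the 5 lines, and the 0 h and 24 h groups overlapped in inducible but not in negative lines. Its log2 difference between 24 h and 4 h was -0.24 (edgeR adjusted p = 0.00864), and between 24 h and 0 h it was -0.16 (adjusted p = 0.0513 unpaired and 0.00365 with the line block). Cebpb gave 22.7, 26.2 and 27.8 CPM at 0, 4 and 24 h in inducible line A217, 23.2, 25.6 and 30.2 CPM in A220 and 22.2, 18.2 and 23.8 CPM in A225. In negative lines A218 and A223 its levels were 21.5, 23.3 and 23.1 CPM and 29.7, 27 and 29 CPM at these times. Its 24 h level was above all 0 h levels in inducible lines, while the negative groups overlapped. The log2 change at 24 h in inducible lines was 0.27, with edgeR adjusted p-values of 0.345 unpaired and 0.0365 with the line block. Exons of Cebpb overlap those of Tmem189 on the other strand, and exons of Cebpg overlap unnamed genes on both strands, so their counts are uncertain in the same way as that of Ddit3.

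The other regulators did not pass the test in any comparison in either fit. Ppp1r15a, the subunit that lets eIF2 be dephosphorylated again, ranged between 16.8 and 22.6 CPM and was above its 0 h level in all 5 lines at both times, with edgeR adjusted p-values of 0.407 at 4 h and 0.212 at 24 h over all 5 lines. Eif4ebp1, a repressor of cap-dependent translation, was below its 0 h level in all 5 lines at 4 h, with a log2 change of -0.18 and an edgeR adjusted p of 0.0517 with the line block. Atf5, a sister of ATF4, ranged between 15.1 and 27.9 CPM and Nupr1, a small stress-induced chromatin protein, between 4.61 and 10.9 CPM, with no shared direction over the lines at 4 h. Atf5 and Ppp1r15a also overlap exons of genes on the other strand.

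Over all 5 lines amino acid supply genes mostly had negative changes at 4 h and stress factors mostly positive ones, though not in every line. Of 19 amino acid enzyme, carrier and tRNA synthetase genes, 6 had a positive log2 change in inducible lines and 1 in negative lines, with medians of -0.051 and -0.15. Over all 5 lines 3 of the 19 were positive, with a median of -0.10 against 0.17 for the 13 stress factors and 0.004 for all features. The median by line was -0.057 in A217, -0.073 in A220 and 0.007 in A225 of the inducible lines and -0.028 in A218 and -0.224 in A223 of the negative lines, with 10 of the 19 positive in A225 and 8 in A218. For the 13 stress factors the medians in the same order were -0.064, 0.034, 0.325, 0.112 and 0.164. The role groups thus hardly differed in A217, where 6 of the 13 stress factors were positive. Over all 5 lines 1 of the 19 was called unpaired, and 6, or 31.6%, were called with the line block, where 8.68% of all features were called. All 6 were lower, while the features called in that comparison were 617 higher and 811 lower. The difference between the role groups is given as values and was not tested.

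All 3 carriers were lower at 4 h over all 5 lines with the line block, and Slc3a2 also unpaired. Within genotypes edgeR called 0 of 3 unpaired in each, and with the block it called Slc3a2 and Slc7a5 in inducible lines and 0 in negative lines, where the lowest adjusted p was 0.0583. At an unadjusted p below 0.05 the unpaired fit had 2 of 3 in each genotype, and DESeq2 and limma-voom called Slc3a2 in inducible lines and 0 in negative lines. Slc3a2 is the shared heavy chain of several amino acid exchangers, and its values were the most even. The Slc3a2 level was 133, 116 and 125 CPM at 0, 4 and 24 h in inducible line A217, with 146, 118 and 114 CPM in A220 and 132, 122 and 121 CPM in A225. Negative line A218 had 147, 129 and 132 CPM and A223 had 160, 131 and 137 CPM. In both genotypes every 4 h and every 24 h library lay below every 0 h library. Its log2 change over all 5 lines was -0.23 at 4 h (edgeR adjusted p = 0.0256) and -0.19 at 24 h (adjusted p = 0.00898). The 4 h call ended without any 1 of 5 libraries (4 h of A217, A218, A220 or A223, or 0 h of A223), with adjusted p-values up to 0.157, and with an offset for effective length (0.112), while the 24 h call was made in all 15 such fits.

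Slc7a5, the leucine importer that pairs with Slc3a2, and Slc7a1, an arginine importer, were lower at 4 h with the line block. In inducible line A217, Slc7a5 measured 100, 75.8 and 88.9 CPM at 0, 4 and 24 h, beside 115, 86.1 and 94.1 CPM in A220 and 97.9, 97.5 and 92.7 CPM in A225. Among negative lines, A218 stood at 119, 102 and 119 CPM and A223 at 137, 106 and 130 CPM. Slc7a5 was lowest at 4 h in A217, A220, A218 and A223 and hardly moved in A225. For Slc7a5 the log2 change at 4 h was -0.27 in inducible and -0.29 in negative lines, and over all 5 lines the edgeR adjusted p was 0.0826 unpaired and 0.00426 with the line block. Inducible line A217 held Slc7a1 at 122, 93.1 and 112 CPM across 0, 4 and 24 h, A220 at 128, 114 and 129 CPM and A225 at 115, 118 and 121 CPM. Without the full set of alleles, A218 held it at 130, 110 and 124 CPM and A223 at 140, 121 and 141 CPM. It was below its 0 h level at 4 h in 4 lines and slightly above it in A225, and by 24 h the 0 h and 24 h groups overlapped. Slc7a1 had a log2 change of -0.20 at 4 h over all 5 lines, with an edgeR adjusted p of 0.256 unpaired and 0.0152 with the line block, and both carriers were higher at 24 h than at 4 h with the line block (0.0192 for Slc7a5 and 0.00756 for Slc7a1).

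Among the 10 amino acid enzymes, 2 were lower at 24 h than at 0 h and the other 8 were not called in that comparison. Shmt2, the mitochondrial enzyme that turns serine into glycine and one-carbon units, gave a call within inducible lines. For Shmt2 the levels at 0, 4 and 24 h were 125, 112 and 104 CPM in inducible line A217, 139, 121 and 100 CPM in A220 and 118, 107 and 92.9 CPM in A225. They were 131, 127 and 109 CPM in negative line A218 and 150, 119 and 119 CPM in negative line A223. No 24 h library reached the lowest 0 h library of its genotype, and the 4 h libraries lay between them or overlapped the 0 h group. The log2 change at 24 h was -0.36 in inducible (95% interval -0.53 to -0.20, edgeR adjusted p = 0.0186) and -0.30 in negative lines (95% interval -0.50 to -0.10, adjusted p = 0.0893 unpaired and 0.00459 with the line block). The inducible call ended without the 0 h library of A217 or A220 or the 24 h library of A220 or A225, with adjusted p-values up to 0.0839, and in a fit of the compared groups alone (0.106). The edgeR adjusted p over all 5 lines was 0.0032 for Shmt2, and this call was made in all 15 fits that left out 1 library. Exons of Shmt2 overlap those of Ndufa4l2 on the other strand, and reads from the shared stretch cannot be told apart without strand.

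Cth makes cysteine from cystathionine. At 0, 4 and 24 h, Cth was at 18.1, 21.5 and 17 CPM in inducible line A217, 18.2, 23.2 and 14 CPM in A220 and 17.8, 17 and 14.4 CPM in A225. The negative lines gave 17.4, 18.3 and 14.6 CPM in A218 and 21.7, 17.7 and 14.4 CPM in A223. It was high at 4 h in A217 and A220 only, and at 24 h every library lay below every 0 h library of its genotype. Against 0 h, the log2 change of Cth at 24 h over all 5 lines was -0.34 (95% interval -0.54 to -0.14, edgeR adjusted p = 0.0231), and against 4 h it was -0.38 (adjusted p = 0.0138). The call against 0 h ended without the 24 h library of A218 or A223 or the 0 h library of A223, with adjusted p-values up to 0.111. Gpt2, a mitochondrial alanine aminotransferase, was lower in all 5 lines at 4 h. Gpt2 gave 43.1, 39.4 and 40.1 CPM at 0, 4 and 24 h in inducible line A217, 44.5, 39.6 and 41.2 CPM in A220 and 45.6, 44.4 and 47.8 CPM in A225. In negative lines A218 and A223 its levels were 43.1, 38.5 and 43.4 CPM and 46.3, 40.7 and 49.5 CPM at these times. The change was small, and the inducible groups overlapped. Its log2 change at 4 h over all 5 lines was -0.14, with an edgeR adjusted p of 0.398 unpaired and 0.0309 with the line block. Gpt2 was also called higher at 24 h than at 4 h with the block. Unpaired, that log2 difference was 0.15 (edgeR adjusted p = 0.123).

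Asns, asparagine synthetase, is a classic ATF4 target with the motif near its start. The Asns level was 209, 212 and 177 CPM at 0, 4 and 24 h in inducible line A217, with 238, 251 and 191 CPM in A220 and 187, 190 and 206 CPM in A225. Negative line A218 had 200, 207 and 203 CPM and A223 had 276, 211 and 237 CPM. All 3 times overlapped in both genotypes, and A223 at 0 h held the highest value. In inducible lines its log2 change was 0.041 at 4 h (edgeR adjusted p = 0.996) and -0.14 at 24 h (adjusted p = 0.575). In negative lines it was -0.19 at 4 h (edgeR adjusted p = 0.994) and -0.12 at 24 h (adjusted p = 0.74). The serine enzymes Phgdh, Psat1 and Psph, the folate enzyme Mthfd2 and the proline enzymes Aldh18a1 and Pycr1 also passed no test in either fit. Over the 15 libraries Phgdh ranged between 441 and 596 CPM, Psat1 between 448 and 560 CPM, Psph between 44.9 and 66.4 CPM, Mthfd2 between 55.7 and 90.8 CPM, Aldh18a1 between 121 and 152 CPM and Pycr1 between 4.01 and 10.6 CPM. Psph also overlaps exons of a gene on the other strand.

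**Figure D3:**
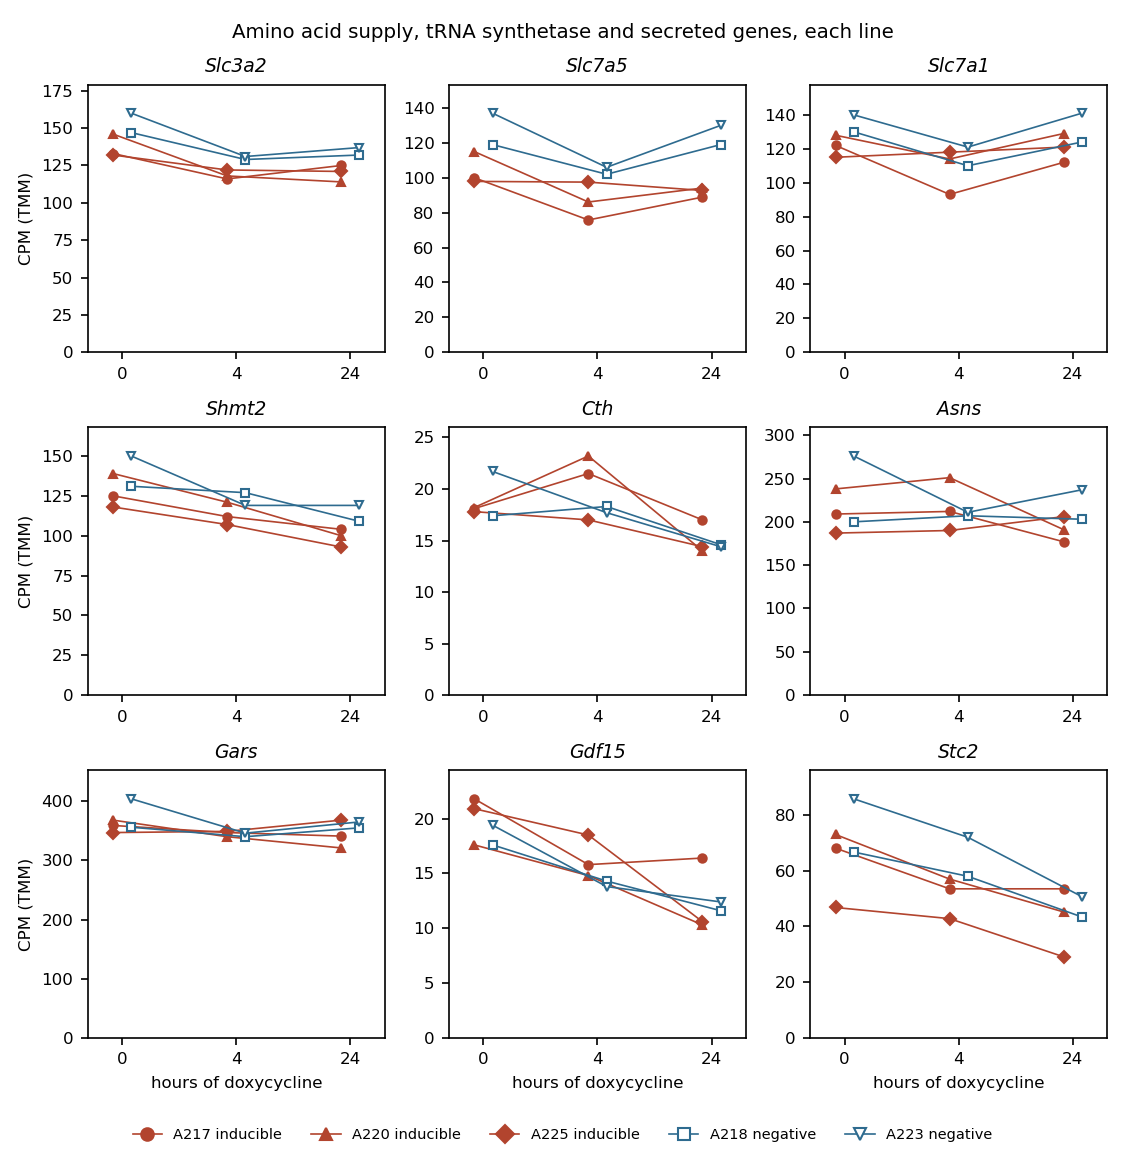
CPM of 9 amino acid supply, synthetase and secreted-protein genes at 0, 4 and 24 h of doxycycline, 1 line per organoid line, inducible lines with filled symbols to the left and negative lines with open symbols to the right, all axes from 0. Gdf15 falls to between 10.3 and 16.4 CPM at 24 h, Slc3a2 lies below its 0 h values at both later times, and the Asns groups overlap at all times in both genotypes.

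The tRNA synthetases, which load amino acids onto tRNAs, stayed within narrow bounds. In inducible lines the log2 changes of the 6 ran between -0.089 and 0.030 at 4 h and between -0.060 and 0.023 at 24 h, and in negative lines between -0.25 and -0.013 at 4 h and between -0.11 and 0.098 at 24 h. The unpaired fit called 0 of 6 in each of these comparisons, with 0 at an unadjusted p below 0.05, and DESeq2 and limma-voom called 0. Wars, which charges tryptophan, was called lower at 4 h in negative lines with the line block. In inducible line A217, Wars measured 193, 183 and 201 CPM at 0, 4 and 24 h, beside 231, 227 and 222 CPM in A220 and 193, 177 and 185 CPM in A225. Among negative lines, A218 stood at 210, 193 and 209 CPM and A223 at 254, 197 and 237 CPM. At 4 h A223 was far below its own 0 h level, the other lines were slightly below theirs, and the inducible groups overlapped. The log2 change in negative lines at 4 h was -0.24 with the line block (edgeR adjusted p = 0.0426), against an adjusted p of 0.849 unpaired. For Wars over all 5 lines the edgeR adjusted p was 0.0155 with the block and 0.519 unpaired. Wars was also called higher at 24 h than at 4 h with the block. Unpaired, that log2 difference was 0.12 (edgeR adjusted p = 0.353).

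Like Wars, the synthetases Aars, Sars and Eprs, for alanine, serine, and glutamate with proline, were called between 24 h and 4 h with the line block. Inducible line A217 held Aars at 300, 270 and 303 CPM across 0, 4 and 24 h, A220 at 304, 267 and 288 CPM and A225 at 289, 303 and 296 CPM. Without the full set of alleles, A218 held it at 310, 304 and 328 CPM and A223 at 306, 294 and 331 CPM. Aars was higher at 24 h than at 4 h in 4 lines and lower in A225, with a log2 difference of 0.11 (edgeR adjusted p = 0.0277). For Sars the levels at 0, 4 and 24 h were 237, 228 and 246 CPM in inducible line A217, 250, 243 and 241 CPM in A220 and 229, 230 and 240 CPM in A225. They were 243, 250 and 263 CPM in negative line A218 and 264, 238 and 280 CPM in negative line A223. Sars was higher at 24 h than at 4 h in 4 lines and slightly lower in A220, with a difference of 0.10 (adjusted p = 0.0248). At 0, 4 and 24 h, Eprs was at 425, 427 and 421 CPM in inducible line A217, 383, 394 and 370 CPM in A220 and 409, 422 and 416 CPM in A225. The negative lines gave 421, 413 and 386 CPM in A218 and 420, 421 and 391 CPM in A223. Eprs was lower at 24 h than at 4 h in all 5 lines, with a difference of -0.072 (adjusted p = 0.0365). Gars ranged between 321 and 404 CPM and Nars between 420 and 495 CPM, and neither was called in any comparison in the edgeR fits. Exons of Aars overlap those of Exosc6 on the same strand and of an unnamed gene on the other, so its counts are uncertain.

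At 24 h against 0 h over all 5 lines, the secreted proteins Gdf15 and Stc2 had the most negative log2 changes of the members. Gdf15 is a stress hormone that acts on the brainstem, and it was lower at 24 h in both genotypes. Gdf15 gave 21.8, 15.8 and 16.4 CPM at 0, 4 and 24 h in inducible line A217, 17.6, 14.8 and 10.3 CPM in A220 and 20.9, 18.5 and 10.6 CPM in A225. In negative lines A218 and A223 its levels were 17.6, 14.3 and 11.6 CPM and 19.4, 13.8 and 12.4 CPM at these times. In both genotypes all 24 h libraries lay below all 0 h libraries, and A217 at 24 h lay closest to them. The log2 change at 24 h was -0.69 in inducible lines (95% interval -1.03 to -0.35, edgeR adjusted p = 0.0283) and -0.62 in negative lines (95% interval -1.04 to -0.21, adjusted p = 0.0907 unpaired and 0.00628 with the line block). The inducible call ended without the 0 h library of A217 or A225 or the 24 h library of A220 or A225, with adjusted p-values up to 0.121, and in a fit of the compared groups alone (0.153). As the mean of both genotypes the change was -0.66 (adjusted p = 0.00408), a call made in all 15 fits that left out 1 library.

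Stc2 encodes stanniocalcin, a secreted glycoprotein. The Stc2 level was 68.1, 53.5 and 53.5 CPM at 0, 4 and 24 h in inducible line A217, with 73, 57 and 45.2 CPM in A220 and 46.8, 42.8 and 29.1 CPM in A225. Negative line A218 had 66.7, 58 and 43.4 CPM and A223 had 85.8, 72 and 50.7 CPM. It was lower at 24 h than at 0 h in each of the 5 lines, but the lines lay at different levels, with A225 low throughout, so that the inducible groups overlapped. For Stc2 the log2 change at 24 h was -0.55 in inducible and -0.70 in negative lines. The unpaired edgeR adjusted p-values were 0.149 and 0.152, and with the line block they were 0.000236 and 0.000251. Stc2 was called over all 5 lines in both fits (0.0236 unpaired), and the unpaired call ended without the 24 h library of A218 or A223 or the 0 h library of A223, with adjusted p-values up to 0.101.

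Vldlr, a lipoprotein receptor, was called by edgeR between 24 h and 4 h with the line block. In inducible line A217, Vldlr measured 17.8, 18.7 and 16.2 CPM at 0, 4 and 24 h, beside 24.7, 20.4 and 20.1 CPM in A220 and 21.3, 27.6 and 21.4 CPM in A225. Among negative lines, A218 stood at 20.8, 21.2 and 18.8 CPM and A223 at 21.7, 27.5 and 23.7 CPM. It was lower at 24 h than at 4 h in all 5 lines, with a log2 difference of -0.20 (edgeR adjusted p = 0.0484), against an adjusted p of 0.318 unpaired. Fgf21 had between 0 and 3 estimated counts in a library, and no fold is given.

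At 24 h against 0 h the share of members called was close to or below that of all genes. In inducible lines the unpaired fit called 2 of 35 members, both lower, where 4.93% of all features were called, and in negative lines 0, where 3.8% were. In negative lines 7 members had an unadjusted p below 0.05, where 3490 of the 16446 features did. DESeq2 called 5 members there and limma-voom 6, with no share of all features given for these fits. With the line block edgeR called 8 members in inducible lines, where 24.3% of features were called, and 6 in negative lines, where 22.5% were. Over all 5 lines it called 6 unpaired, 17.1% of the members, where 18.7% of features were called, and 8 with the block, 22.9% of the members, where 36.1% were. Of the 6, 5 were lower (Cth, Gdf15, Shmt2, Slc3a2 and Stc2) and Sesn2 was higher, while among all features called in that comparison 1793 were higher and 1289 lower. Between 24 h and 4 h, 3 of 35 members were called unpaired, a smaller share than the 19.5% of features called. With the line block 16 of 35 were called, 8 in each direction, a larger share than the 37.1% of features. The unpaired count of 3 was 1 without the 24 h library of A223 and 5 without the 4 h library of A225, and that of Sesn2 was lost in 13 of the 15 fits without 1 library.

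Most members had small differences. At 24 h over all 5 lines 29 of 35 members, 82.9%, had a fold change below 1.25 in either direction, against 73.6% of all features, and at 4 h 31 of 35, 88.6%, against 86.4%. At 24 h 3 members were above their 0 h level in all 5 lines (Ddit4, Sesn2 and Ppp1r15a) and 8 were below it (Cebpg, Cth, Gdf15, Pycr1, Shmt2, Slc3a2, Slc7a5 and Stc2), against 21.8% and 18.1% of all features. At 4 h 1 member was above in all lines and 8 were below, against 10.4% and 10.8% of features. Without the 24 h library of A225, which stood apart, the unpaired fit called 0 members at 24 h in inducible lines and 6 over all 5 lines. The inducible count was also 0 without the 24 h library of A220 or the 0 h library of A217 and 1 without the 0 h library of A220 or A225. It was 3 without the 24 h library of A217, which also brought the count in negative lines to 1. The count over all 5 lines was 3 without the 24 h library of A223. With the line block and without line A225, 17 members were called over the other 4 lines.

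**Figure D4:**
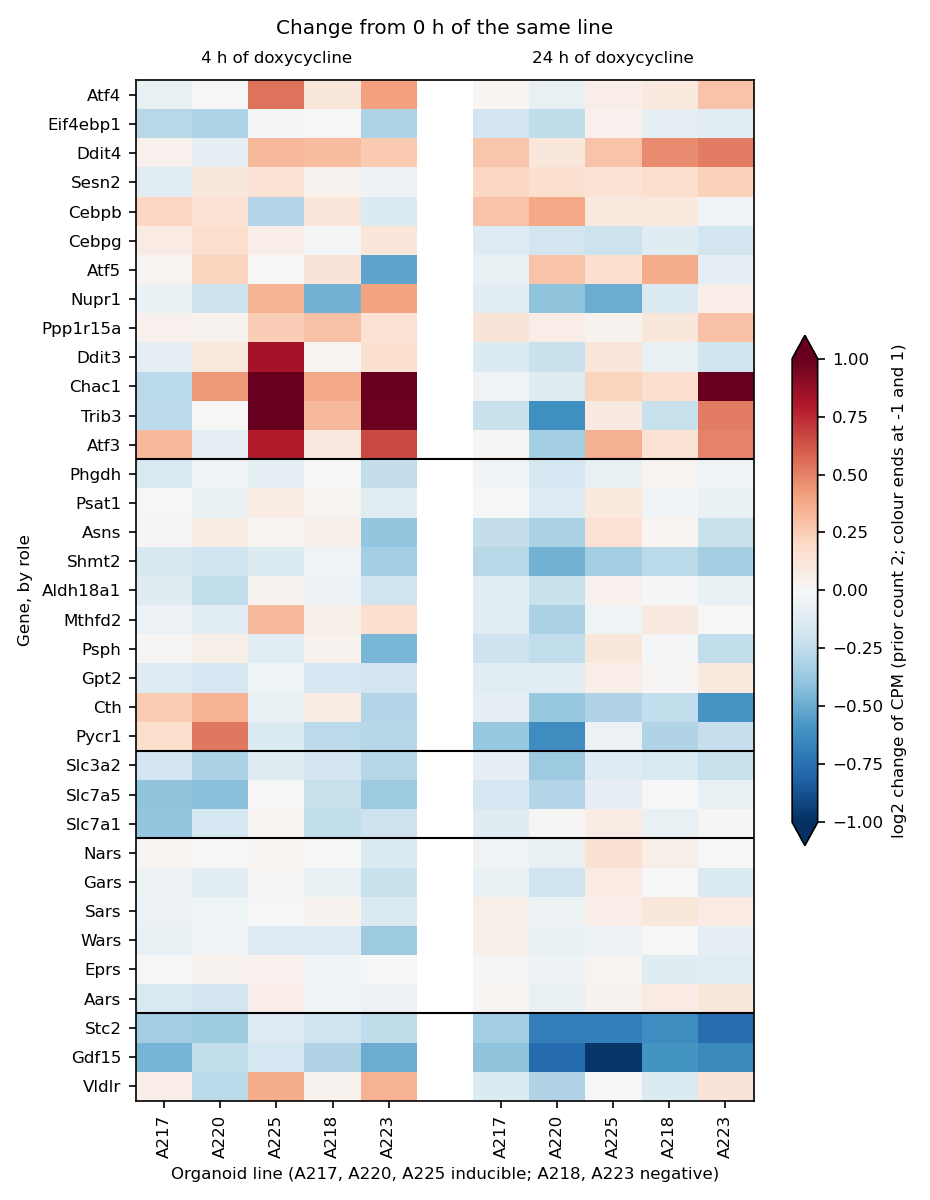
Log2 change of CPM against the 0 h library of the same line for 35 members (rows, grouped by role from regulators at the top to secreted proteins at the bottom) at 4 h and 24 h, with inducible lines A217, A220 and A225 left of negative lines A218 and A223, and red for higher. Chac1 and Trib3 are deep red at 4 h in A225 and A223 (up to 1.81), and Gdf15 and Stc2 are blue in all 5 lines at 24 h. The carriers are blue at 4 h apart from A225, where Slc7a1 is slightly higher and Slc7a5 nearly unchanged (-0.006).

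The responses were not shown to differ between genotypes for any member. The difference of the responses, inducible minus negative, was called for 0 of 35 members at 4 h and 0 at 24 h in the unpaired fit, where 0.0122% of features, the induced sequences among them, were called at each time. With the line block it was called for 0 members at each time, where 0.0182% of features were called at 4 h and 0.0243% at 24 h. At an unadjusted p below 0.05 the unpaired edgeR fit had 0 members at each time and the fit with the block 1 at each. With the block 746 of the 16446 features were below it at 4 h and 1326 at 24 h. DESeq2 and limma-voom called 0 members. For Shmt2 the difference of the 24 h responses was -0.062 in log2 (95% interval -0.32 to 0.20), and for Gdf15 it was -0.065 (95% interval -0.60 to 0.47). For Atf4 the difference of the 4 h responses was -0.087 (95% interval -0.45 to 0.28). For Chac1 it was -0.12, and its interval of -1.61 to 1.37 holds differences of more than a log2 unit in either direction. All these intervals are from the unpaired fit, which does not use the pairing of libraries by line. These values do not show that the genotypes respond alike.

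**Figure D5:**
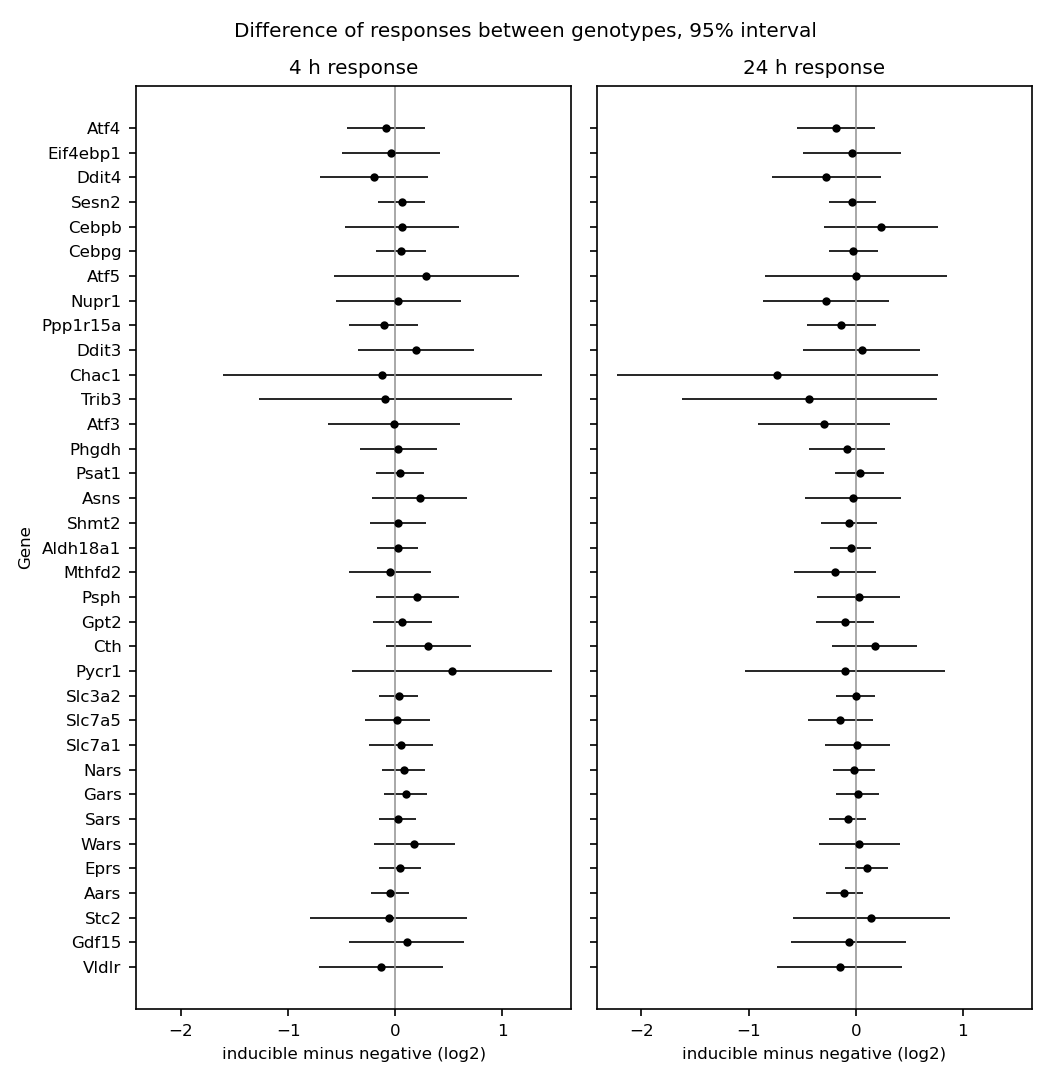
Difference between genotypes in the response to doxycycline, inducible minus negative, in log2, with 95% intervals from the unpaired edgeR fit for 35 members at 4 h (left) and 24 h (right). Every interval includes 0, and the widest are those of Chac1 and Trib3.

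Levels between genotypes at the same time were set side by side in the unpaired fit, where the line cannot be a block. It called 0 members at 0 h, where 0.0% of features were called, 0 at 4 h, where 0.0122% were, and 0 at 24 h, where 0.0122% were. At an unadjusted p below 0.05 there were 2 members at 0 h, 2 at 4 h and 8 at 24 h. Of the 16446 features, 588, 549 and 945 were below it at these times. The members' share was thus close to that of features at 0 h and 4 h and larger at 24 h. DESeq2 and limma-voom called 0 members at each time. Slc7a5 and Slc3a2 were lower in inducible than in negative lines at all 3 times. The log2 difference of Slc7a5 was -0.29 at 0 h, then -0.27 at 4 h and -0.43 at 24 h, with an edgeR adjusted p of 0.855 at 24 h. All 19 supply genes had a negative difference at 0 h, with a median of -0.12, and 12 of the 35 members had their highest level of all libraries in A223 at 0 h, against 5.83% of features. Without that library the median difference of the members at 0 h was -0.030, against -0.099 with it, and the median change of the members at 24 h in negative lines was 0.059, against -0.042 with it.

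Other genes of the pathway, outside the 36, were counted in 4 lists, also chosen with earlier results of these data known. Of 23 genes of the eIF2 kinases and their machinery, all measured, 0 were called within a genotype in the unpaired fit, with 3 at an unadjusted p below 0.05 in inducible and 2 in negative lines at 24 h, and 2 in inducible and 3 in negative lines at 4 h. Of the 16446 features, 3683 and 3490 were below it at 24 h, and 1251 and 1039 at 4 h. Over all 5 lines 1 of the 23 was higher at 4 h, and 2 were higher and 1 lower at 24 h, where limma-voom and the fit with the line block called 6 each and DESeq2 called 3. At 24 h these edgeR counts are 13.0% of the list unpaired and 26.1% with the block, below the 18.7% and 36.1% of all features, and at 4 h 0.912% of features were called unpaired. With the block 3 were called at 4 h over all 5 lines, 13.0% of the list, where 8.68% of features were. Within inducible lines the block called 2 at 4 h and 3 at 24 h, where 3.05% and 24.3% of features were called. Within negative lines it called 1 and 3, where 2.06% and 22.5% were. Within a genotype DESeq2 called at most 1 and limma-voom at most 2. Dnajc3, a chaperone that also inhibits eIF2 kinases, had a log2 change of 0.23 at 4 h (edgeR adjusted p = 0.0226) and 0.17 at 24 h (adjusted p = 0.0153). Eif2ak2, the kinase PKR, was at 0.19 at 24 h (adjusted p = 0.0473), and Eif2b5, a subunit of the exchange factor eIF2B, was at -0.14 (adjusted p = 0.0382). With the line block Impact, an inhibitor of the kinase GCN2, was at 0.23 in inducible lines at 24 h (adjusted p = 0.0205) and Eif2ak1, the kinase HRI, at 0.14 (adjusted p = 0.0251). The block fit also called Impact in negative lines at 24 h. Gcn1, a GCN2 activator, was at -0.12 over all 5 lines (adjusted p = 0.0276).

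Of 17 other cytosolic synthetases and scaffold proteins, edgeR called 0 in any of these time comparisons against 0 h in either fit. At an unadjusted p below 0.05 the unpaired fit had 1 in inducible lines at 24 h and 0 in the others, and the fit with the block had at most 3, while DESeq2 and limma-voom called 0. Of 17 mitochondrial synthetases, the unpaired fit called 2 lower in inducible lines at 24 h and the fit with the block 7 lower, with 0 and 3 in negative lines, 2 of those 3 lower. In inducible lines these are 11.8% and 41.2% of the list, where 4.93% and 24.3% of all features were called, and in negative lines 0.0% and 17.6%, where 3.8% and 22.5% were. Over all 5 lines at 24 h the unpaired fit called 3, or 17.6%, where 18.7% of features were called, and the fit with the block called 8, or 47.1%, where 36.1% were. DESeq2 called 7 and limma-voom 8 there. Mars2, which charges methionine in mitochondria, had a log2 change of -0.44 in inducible lines at 24 h (edgeR adjusted p = 0.016) and -0.37 in negative lines (adjusted p = 0.0781 unpaired and 0.00169 with the block). Hars2 was at -0.25 in inducible lines (adjusted p = 0.0469). Pars2, Sars2 and Tars2 were at -0.32, -0.23 and -0.18 in inducible lines with the block (adjusted p-values of 0.0328, 0.0192 and 0.0123). The median of these 17 at 24 h was -0.155 in inducible and -0.064 in negative lines, against medians of all features of 0.0001 and 0.0061, and the difference between genotypes was not tested for this list.

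Of 21 other ATF4 targets, 20 were measured, and those called went in both directions. At 24 h over all 5 lines the unpaired fit called 8, of which 4 were higher and 4 lower, and the fit with the line block called 13, of which 4 were higher and 9 lower. These are 40.0% and 65.0% of the measured targets, where 18.7% and 36.1% of all features were called. Because this list was chosen with earlier results of these data known, its larger share is a description only. Herpud1, which helps clear misfolded secretory proteins, was at 0.40 in inducible lines (edgeR adjusted p = 0.0276) and 0.54 in negative lines (adjusted p = 0.0204). Sqstm1, the autophagy receptor p62, was at 0.32 in inducible lines (adjusted p = 0.00897) and 0.41 in negative lines (adjusted p = 0.00917). Bbc3, a pro-death member of the BCL2 family, was at -0.39 (adjusted p = 0.0248) and Slc1a4, a carrier of neutral amino acids, at 0.30 (adjusted p = 0.0231) over all 5 lines. The mitochondrial enzymes Aldh1l2 and Pck2 were called with the line block in inducible lines at -0.82 (adjusted p = 0.0217) and -0.30 (adjusted p = 0.0148). At 4 h the unpaired fit called 1 of the 20 in each genotype. Of all features, 0.298% were called in inducible and 0.122% in negative lines. Over all 5 lines it called 2, both lower, where 0.912% of features were called. With the line block 4 were called in inducible lines, where 3.05% of features were, and 5 in negative lines, where 2.06% were. Over all 5 lines the block called 7, with 3 higher and 4 lower, where 8.68% of features were called. Slc1a4 and Sqstm1, both higher at 24 h, were among the 4 lower at 4 h. The gene called unpaired in each genotype was Slc7a11, the cystine importer, named after its values were seen. Its change at 4 h was -0.57 in inducible lines (edgeR adjusted p = 0.0184) and -0.68 in negative lines (adjusted p = 0.0401). By 24 h its change was -0.058 in inducible lines (edgeR adjusted p = 0.766 unpaired and 0.433 with the block) and -0.25 in negative lines (adjusted p = 0.228 unpaired and 0.00647 with the block).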

How the data were processed

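RNA of 15 organoid libraries was depleted of ribosomal RNA and sequenced with paired reads, per the labels' protocols. The deposited files hold estimated counts and TPM per transcript, with kallisto 0.43.1, the build GRCm38 and DESeq2 1.18.1 named in the submitters' processing notes. The sources do not state a strand setting for the counting. Estimated counts were summed per gene with GENCODE M21 identifiers, and transcripts not matched to a gene held 0.556% to 0.593% of a library's counts. Genes were filtered with edgeR's filterByExpr, which left 16446 features holding 99.98% of the counts, and TMM factors ran between 0.966 and 1.023.

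Counts rounded to whole numbers were tested with edgeR 4.0.16 (R 4.3.3) by the quasi-likelihood test over the 6 groups of genotype and time, 15 libraries in all, with Benjamini-Hochberg adjustment and a threshold of 0.05. The same fit with the organoid line as a block left 6 residual degrees of freedom, against 9 without it, and a common coefficient of biological variation of 0.058, against 0.157. The numbers pair the libraries because each line gave 1 library per time, and deviations of same-line libraries correlated at 0.381 to 0.477 within inducible and 0.238 to 0.285 within negative lines. Alternatives were limma 3.58.1 (voom with a random line block), DESeq2 1.42.0, other scalings and filters, an offset for effective length, the compared groups alone, and leaving out each library. The comparison of 24 h with 4 h and the block fits without 1 line were added after seeing the data. Within a genotype, a dropped library was left out of the whole fit. The edgeR steps were tested on simulated data. Replicates differed by more than counting noise in each of 12 pairs. Members and lists were chosen with earlier results of these data known. Values per library are given for members called in any comparison in either edgeR fit and for Atf4, Ddit3, Asns and Trib3. Of the other pathway lists, at most 6 genes per list that were called in any time comparison in either fit are named, by the size of the 24 h change in inducible lines, and others are marked as chosen after their values were seen. A few items of these lists are not reported here.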

Additional observations from a re-analysis of the deposited data

How the results depend on the processing

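The line block and the random line block raised most counts of called members. Of 35 members, the block called, in inducible lines, 2 at 4 h and 8 at 24 h, then in negative lines 1 at 4 h and 6 at 24 h, then 10 at 4 h over all 5 lines and 16 between 24 h and 4 h, and it changed the calls named in the report. With limma-voom the counts in inducible lines were 1 at 4 h and 6 at 24 h, with 6 at 24 h in negative lines, 5 at 4 h over all 5 lines and 11 between 24 h and 4 h. DESeq2 called, in inducible lines, 1 at 4 h and 4 at 24 h, 5 at 24 h in negative lines and 2 at 4 h over all 5 lines. A fit of the compared groups alone, with fewer residual degrees of freedom, called 0 at 24 h in inducible and 3 in negative lines, and an offset for effective length called 0 at 4 h over all 5 lines. The cause of the differences between fits was not tested, and no share of all features is given beside the limma-voom and DESeq2 counts.

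Leaving out 1 library, or 1 line under the block, gave, in inducible lines, 0 to 2 called members at 4 h and 0 to 8 at 24 h, then in negative lines 0 to 4 at 4 h and 0 to 8 at 24 h, then 0 to 10 at 4 h and 3 to 17 at 24 h over all 5 lines, and 1 to 13 between 24 h and 4 h. The median log2 change of the members ran between -0.0478 and 0.0489 at 4 h in inducible lines, between -0.1904 and 0.0045 at 4 h and between -0.1241 and 0.0588 at 24 h in negative lines. The median difference of the 4 h responses ran between -0.013 and 0.1246. For inducible minus negative lines the median ran between -0.1856 and -0.0296 at 0 h, between -0.0728 and 0.0096 at 4 h and between -0.2067 and -0.0798 at 24 h. No log2 change of a named gene that was called unpaired changed direction under the alternatives run. Besides the lost calls given in the report, the block fit without line A223 ended the 24 h calls of Cth and Sesn2 and the 4 h call of Slc3a2 over all lines. The call of Cth between 24 h and 4 h ended without the 24 h library of A223, and that of Sesn2 between those times also ended with other filters, a length offset or the compared groups alone. With 3 and 2 lines, a genotype difference of a size within the printed intervals is not excluded. The intervals of Chac1 and Trib3 were the widest. Their 4 h changes by line ran between -0.268 and 1.808 for Chac1 and between -0.265 and 1.514 for Trib3.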

Other observations

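Several members are listed with more than 1 transcript, and the share of each transcript in its gene's estimated counts can be given for the 5 lines. For Vldlr, a transcript annotated for nonsense-mediated decay held 36.3% ± 3.59 of the counts before doxycycline, 30.2% ± 9.61 at 4 h and 26.2% ± 8.41 after 24 h (SD, n = 5). The protein-coding transcript Vldlr-207 held 31.9% ± 2.63, 40.6% ± 2.57 and 35.1% ± 3.54 at these times. Its shares at 4 h, between 37.5% and 42.8%, lay above all its shares at 0 h, between 27.8% and 34.2%. The leading Gdf15 transcript held 73.9% ± 4.80, 79.2% ± 5.50 and 80.2% ± 5.71. No test was run on these shares, and the files give no error for the assignment of reads between transcripts of a gene.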
